A study of Mus musculus with 6 samples.

Results

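The genes described here are 10 markers of the endothelium, the cell layer that lines blood and lymph vessels: Pecam1, Cdh5, Kdr, Flt1, Tek, Tie1, Erg, Emcn, Sox17 and Sox18. They were chosen by name, and all 10 were found among the 21911 protein-coding gene symbols of the annotation. Their open chromatin was read from ATAC-seq of E14.5 palatal shelves from C57BL/6 mice, a method in which the transposase Tn5 cuts where DNA is accessible. The shelves were treated with 0.25% trypsin-EDTA, the multilayered epithelium was peeled off by hand, and the tissue that stayed behind served as the mesenchyme, so blood vessels, which run in the mesenchyme, could be carried in either fraction. There were 3 epithelium and 3 mesenchyme libraries of about 20000 cells each, with no genetic change or treatment that differed between them, and no sorting step for or against vessel cells is named. The sources differ on the material of a replicate: the series design gives 3 embryos and the treatment protocol 5 shelves, and the study's methods name yet another number of embryos for the harvest.

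Each library has its own list of peaks, with positions and no heights. The lists held from 270003 to 349322 peaks in epithelium and from 295141 to 341741 in mesenchyme, and covered between 125 and 169 Mb. The depth in reads is unknown, and where no peak was called the chromatin may still be open. A peak counted for a gene when its midpoint lay in the gene body or within 100 kb of the start of the gene record. Peak counts are printed as they stand in the lists, while differences, and every statement that a gene was higher in each library of a tissue, use counts scaled to the mean list length. In bulk tissue, fewer vessel cells and less open chromatin per cell cannot be told apart. The nature of the peeled tissues was read from genes of either layer. Peaks near Trp63, the master regulator of stratified epithelium, were fewer in mesenchyme by limma (log2 difference -1.57 ± 0.28 SE, adjusted p = 0.0011), and those near Prrx1, a factor of limb and face mesenchyme, were more (log2 difference 1.04 ± 0.25 SE, adjusted p = 0.011). Of 14 epithelial markers 3 passed the threshold as higher in epithelium, beside 1.49% of all genes tested, and 0 as higher in mesenchyme, beside 1.64%. Of 16 mesenchyme markers 1 passed as higher in mesenchyme and 0 as higher in epithelium, beside the same shares. The lists as a whole were less clear, since 4 of the 14 epithelial and 10 of the 16 mesenchyme markers lay above 0 (medians -0.10 and 0.06), beside 53.6% of all genes tested. The other epithelial calls were Dsg3 and Dsp, of the desmosome (log2 differences -1.81 ± 0.30 and -0.68 ± 0.17 SE, adjusted p = 0.00050 and 0.017). Over 19 other settings Trp63 and Dsg3 missed the threshold in 5 each, with adjusted p-values up to 0.230 and 0.482, and Dsp and Prrx1 in 8 each. Of these, Prrx1 missed it without epithelium library 1 (adjusted p = 0.103) or mesenchyme library 3 (0.053), and Dsp without epithelium library 1 (0.100), epithelium library 2 (0.097) or mesenchyme library 1 (0.057). Esrp1 was higher in every epithelium library (-0.47 ± 0.22 SE), and Lum, Dcn and Lhx8 in every mesenchyme library (0.74 ± 0.27, 0.27 ± 0.25 and 0.40 ± 0.15 SE), with adjusted p-values from 0.120 to 0.618. Of the 14 epithelial markers 4 were higher in every epithelium library (28.6%, beside 9.08% of all genes tested) and 0 in every mesenchyme library. Of the 16 mesenchyme markers 4 were higher in every mesenchyme library (25.0%, beside 13.0%) and 0 in every epithelium library. In base pairs covered, a measure that called more of all genes in both directions, Esrp1 and Lhx8 passed (adjusted p = 0.0051 and 0.037). Lhx8 also passed without epithelium library 3 (0.049).

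As background, endothelial cells depend on the Vegf receptors Kdr and Flt1 for growth and on the Tie receptors Tek and Tie1 for the stability of the vessel wall. Pecam1, Cdh5 and Emcn are surface proteins of the endothelium, of which Cdh5 builds its adherens junctions. Erg belongs to the ETS family of transcription factors and Sox17 and Sox18 to the SoxF group, and enhancers of endothelial genes are known to carry ETS, SOX, FOX and GATA motifs, at times as a composite FOX-ETS site.

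The sequence at 4 starts is shown first, since the clearest contrast between the tissues lay at the start of Tie1. Each run holds 250 bases before the start and 30 bases from it, read 5′ to 3′ on the strand of the gene from the RefSeq genome GRCm38.p6, the assembly of mm10. Capitals mark the letters searched on both strands: for ETS factors AGGAAG or else, in a form with another first base, CGGAAG, for FOX factors the run TGTTTAC, for the FOX-ETS pair the run AACAGGAA, for SOX factors the run AACAAT, for GATA factors the run AGATAA, for AP-1 the run TGANTCA, for KLF factors the run GGGTGTG, and for the E-box the run CAGGTG. The FOX-ETS letters run into AGGAAG where a G follows, so 1 stretch can match both. The start of Tie1 had a peak in every mesenchyme library and in no epithelium library, that of Flt1 a peak in all 6 of like width, and that of Emcn a peak in 1 mesenchyme library within 1 kb. The inner start of Erg belongs to shorter transcripts that begin 127245 bp into the gene, and 2 mesenchyme libraries and no epithelium library had a peak within 1 kb of it. Of other inner Erg starts, that of Erg-208, 56228 bp into the gene, had one in 3 epithelium and 2 mesenchyme libraries, and that of Erg-204, at 61990 bp, in 0 libraries.
Tie1 start, chr4:118490032-118490311, minus strand: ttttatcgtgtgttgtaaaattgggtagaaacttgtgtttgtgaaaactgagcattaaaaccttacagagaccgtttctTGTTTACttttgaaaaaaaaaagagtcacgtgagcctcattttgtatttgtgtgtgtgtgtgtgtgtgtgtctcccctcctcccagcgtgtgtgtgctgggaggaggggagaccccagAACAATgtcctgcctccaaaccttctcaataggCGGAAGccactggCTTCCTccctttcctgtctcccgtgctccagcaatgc
Flt1 start, chr5:147725982-147726261, minus strand: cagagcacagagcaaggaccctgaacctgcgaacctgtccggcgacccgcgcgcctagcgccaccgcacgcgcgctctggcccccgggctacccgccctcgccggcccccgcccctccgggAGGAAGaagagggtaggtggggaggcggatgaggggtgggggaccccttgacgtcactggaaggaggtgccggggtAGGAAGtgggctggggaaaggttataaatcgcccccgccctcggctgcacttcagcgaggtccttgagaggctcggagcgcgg
Emcn start, chr3:137340817-137341096, plus strand: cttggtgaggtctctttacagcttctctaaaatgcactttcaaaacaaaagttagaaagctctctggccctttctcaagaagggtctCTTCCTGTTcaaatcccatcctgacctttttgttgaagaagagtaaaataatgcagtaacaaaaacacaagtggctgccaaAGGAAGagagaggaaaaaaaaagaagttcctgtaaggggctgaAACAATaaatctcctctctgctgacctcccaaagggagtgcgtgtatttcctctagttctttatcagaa
Erg inner start, chr16:95459319-95459598, minus strand: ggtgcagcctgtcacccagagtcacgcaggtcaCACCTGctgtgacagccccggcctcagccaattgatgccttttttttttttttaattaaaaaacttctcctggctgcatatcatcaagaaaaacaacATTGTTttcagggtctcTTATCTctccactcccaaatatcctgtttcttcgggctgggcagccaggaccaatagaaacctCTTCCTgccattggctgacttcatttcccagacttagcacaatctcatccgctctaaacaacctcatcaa

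The Tie1 run held 1 match each to both ETS forms, to the FOX letters and to the SOX letters. Peaks of all 3 mesenchyme libraries lay over both ETS matches, and a peak of 1 mesenchyme library over the FOX and the SOX match. The FOX-ETS letters stood in the run of Emcn. Over the same 280 bases at the main starts of all 10 members, AGGAAG was found at 6 starts, against 32.4% of all 21911 genes, and AACAGGAA at 2, against 2.20%. The SOX letters were found at 4 of 10 starts, against 9.70% of all genes, and the other ETS form, the FOX letters and the KLF letters at 1 each, against 18.8%, 2.92% and 8.10%. The letters for GATA, AP-1 and the E-box were in none of these 10 windows and in 9.74%, 6.62% and 19.2% of all genes' windows. Emcn matched 4 times in its run and had no peak over it in any library, while Kdr and Erg, open at their main starts in all 6 libraries, matched none of these letters there.

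The number of open regions around the endothelial genes differed little between the tissues. Of the 10 members, 0 passed the threshold of an adjusted p of 0.05 in limma as higher in mesenchyme, beside 1.64% of the 21736 genes tested, and 0 as higher in epithelium, beside 1.49%. The median of the 10 log2 differences, mesenchyme minus epithelium, was 0.02, the same to the second decimal as the median of all genes tested, 0.02. At an unadjusted p under 0.05 stood 4 of the 10 members, Kdr, Pecam1, Tek and Sox17, beside 3887 of all genes tested (17.9%), and Kdr and Pecam1 had more peaks in mesenchyme, Tek and Sox17 in epithelium. Taken as a whole, the 10 windows held 0.138% ± 0.006 of the epithelium lists (SD, n = 3) and 0.142% ± 0.0035 of the mesenchyme lists (SD, n = 3), and the libraries of the tissues overlapped, at 0.133% to 0.145% and 0.139% to 0.146%.

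**Figure D1:**
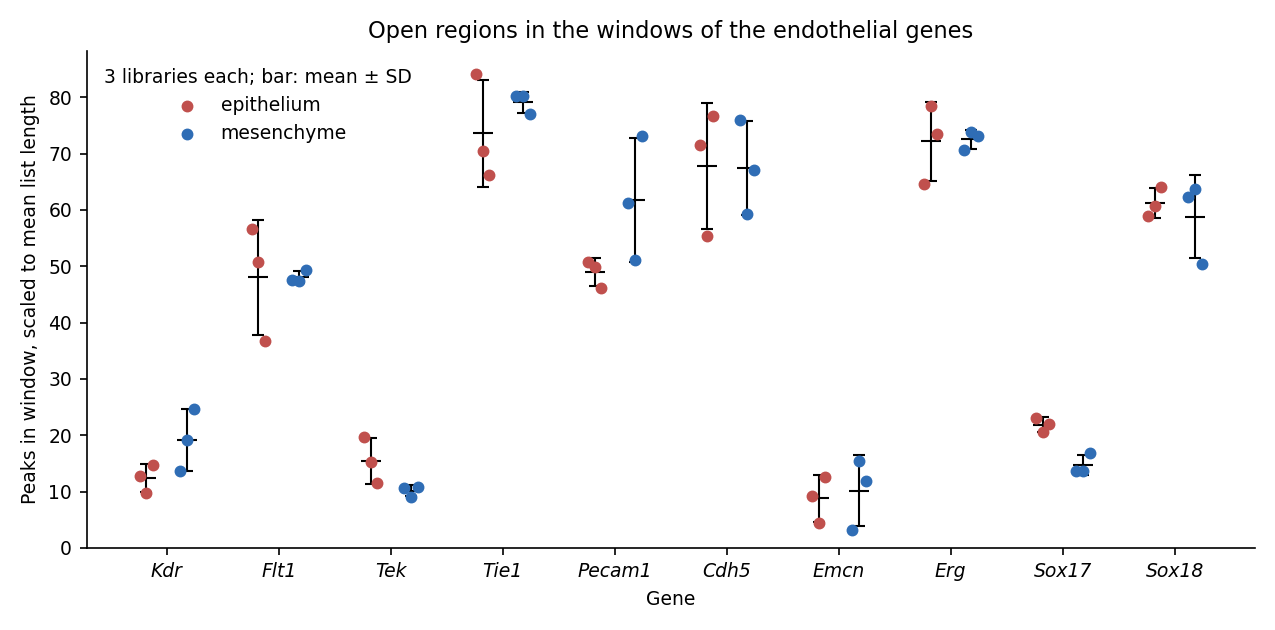
Peaks in the window of each endothelial gene, scaled to the mean list length, for the 3 epithelium libraries (red) and the 3 mesenchyme libraries (blue). Points are libraries and bars give the mean with its SD; Pecam1 is higher in every mesenchyme library, Sox17 and Tek in every epithelium library, and the other genes overlap.

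Kdr, the main signalling receptor for Vegfa, had 11, 11 and 14 peaks in epithelium libraries 1, 2 and 3 and 13, 21 and 25 in mesenchyme libraries 1, 2 and 3. Scaled means were 12.4 ± 2.5 for epithelium and 19.2 ± 5.5 for mesenchyme (SD, n = 3 each), and the libraries of the tissues overlapped, mesenchyme library 1 lying among the epithelium libraries. The log2 difference of 0.57 ± 0.25 (SE) was the highest of the 10 and did not pass the test (limma, adjusted p = 0.203). Flt1, the second Vegf receptor, which binds the ligand tightly and signals weakly, had 49, 57 and 35 peaks in epithelium and 45, 52 and 50 in mesenchyme. The epithelium libraries of Flt1 lay on both sides of the mesenchyme libraries, and the log2 difference was 0.02 ± 0.15 (SE, adjusted p = 0.953).

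Tek, the receptor of the angiopoietins, had 17, 17 and 11 peaks in epithelium and 10, 10 and 11 in mesenchyme. Once scaled, all epithelium libraries lay above all mesenchyme libraries, 15.4 ± 4.0 against 10.2 ± 0.9 (SD, n = 3 each), with the lowest epithelium value at 11.5 and the highest mesenchyme value at 10.9. The log2 difference for Tek was -0.53 ± 0.26 (SE, limma adjusted p = 0.279). When base pairs under peaks were counted in place of peaks, it was -0.87 with an adjusted p of 0.032. More of all genes passed under that measure. Tie1, the partner receptor of Tek, had 73, 79 and 63 peaks in epithelium and 76, 88 and 78 in mesenchyme, overlapping values with a log2 difference of 0.11 ± 0.12 (SE, adjusted p = 0.678). Within the body of Tie1 alone there were 10, 10 and 9 peaks in epithelium and 14, 15 and 13 in mesenchyme, with no overlap. The log2 difference there was 0.43 ± 0.19 (SE) and did not pass (limma, adjusted p = 0.444).

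Pecam1, an adhesion receptor between endothelial cells, had 44, 56 and 44 peaks in epithelium and 58, 56 and 74 in mesenchyme. Scaled, these were 48.9 ± 2.4 and 61.8 ± 11.0 (SD, n = 3 each), and the lowest mesenchyme library, at 51.0, lay just above the highest epithelium library, at 50.7. The log2 difference of 0.32 ± 0.14 (SE, limma adjusted p = 0.211) stands beside a median of 0.18 for the tested genes of chromosome 11, on which Pecam1 lies. When each peak was given only to its nearest start the difference of Pecam1 was -0.06, and in the gene body alone it was -0.12, with 34, 38 and 31 peaks in epithelium and 30, 28 and 42 in mesenchyme. Cdh5, also known as VE-cadherin, had 62, 62 and 73 peaks in epithelium and 72, 65 and 68 in mesenchyme, and its log2 difference rounded to 0 (-0.0013 ± 0.13 SE, adjusted p = 0.997). Emcn, a sialomucin of veins and capillaries, had the fewest peaks of the 10 genes, 8, 5 and 12 in epithelium and 3, 17 and 12 in mesenchyme. The lowest and the highest value of Emcn were both in mesenchyme (log2 difference 0.07 ± 0.37 SE, adjusted p = 0.942).

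Erg, the most endothelial of the ETS factors, had 56, 88 and 70 peaks in epithelium and 67, 81 and 74 in mesenchyme, and both tissues had a scaled mean near 72 (72.2 ± 7.0 and 72.5 ± 1.6, SD, n = 3 each). Sox17, a factor of arteries and of endoderm, was higher in epithelium in this measure, with 20, 23 and 21 peaks against 13, 15 and 17. No mesenchyme library of Sox17 reached an epithelium library (scaled 21.9 ± 1.3 against 14.7 ± 1.8, SD, n = 3 each), yet the log2 difference of -0.55 ± 0.22 (SE) missed the threshold (limma, adjusted p = 0.163). Counted as base pairs under peaks it was -0.54 with an adjusted p of 0.046. With the reach around the start cut from 100 to 10 kb the peak count gave 0.23, so the epithelial excess lay beyond 10 kb. Sox18, needed for lymphatic vessels, had 51, 68 and 61 peaks in epithelium and 59, 70 and 51 in mesenchyme (log2 difference -0.06 ± 0.13 SE, adjusted p = 0.851).

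In scaled counts, 1 of the 10 members, Pecam1, was higher in every mesenchyme library than in any epithelium library, beside 13.0% of all genes tested, and 2, Tek and Sox17, were higher in every epithelium library, beside 9.08%. In the gene bodies alone, 2 members, Tie1 and Sox17, were higher in every mesenchyme library, beside 8.80% of 17409 genes, and 0 were higher in every epithelium library, beside 6.01%. Without scaling to list length, and with a reach of 50 kb, Sox17 in epithelium was the only one of these without overlap, and Pecam1 also overlapped under median ratio scaling and in base pairs covered. The Sox17 body is short, with 1, 2 and 2 peaks in epithelium and 2, 3 and 3 in mesenchyme, so its counts met at 2 before scaling. With 3 libraries against 3, an exact permutation test of a single gene cannot go below p = 0.1 (two-sided).

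**Figure D2:**
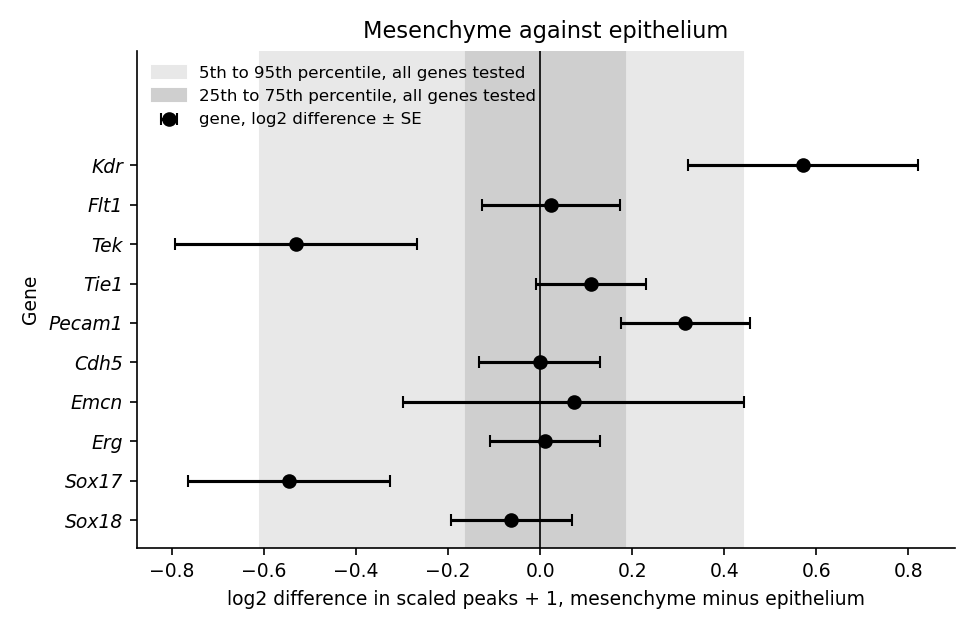
Log2 difference in scaled peaks, mesenchyme minus epithelium, with its SE for each endothelial gene, over grey bands that hold the middle of all 21736 genes tested (5th to 95th and 25th to 75th percentile). Kdr lies above the 95th percentile of 0.44, Tek and Sox17 lie near the 5th percentile of -0.61, and the other genes lie between.

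At the starts 1 gene, Tie1, gave a clearer contrast than in its window, and no member passed the fit over covered length given below. Tie1 had 0 bp under peaks within 1 kb of its start in all 3 epithelium libraries and 605, 677 and 416 bp in mesenchyme libraries 1, 2 and 3 (mean 566 ± 135, SD, n = 3). The peaks covered the start of the gene record and untranslated exon sequence, in a merged region of 735 bp at chr4:118489504-118490238. A start with a peak in every mesenchyme and no epithelium library was found for 1 of the 10 members and for 59 of all 21911 genes (0.269%), and the reverse for 0 members and 68 genes (0.310%). Tie1 kept this pattern when the reach was widened to 2000 bp. Narrowing the reach to 500 bp or leaving out any of the 6 libraries could not have changed it. The mesenchyme peaks cover the start itself, and epithelium had none within 1 kb. The Tie1 pattern is a comparison of presence calls. In a limma fit over the base pairs covered at 17610 starts, chosen after these values were seen, Tie1 had a log2 difference of 1.89 ± 0.45 (SE), which rests on the pseudocount of 199 bp because epithelium was at 0, and did not pass adjustment (adjusted p = 0.167). Leaving out 1 library gave adjusted p-values from 0.244 to 0.441.

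Cdh5 had 588, 634 and 697 bp under peaks at its start in epithelium and 1003, 1357 and 1128 bp in mesenchyme. No epithelium library reached a mesenchyme library, with means of 639.7 ± 54.7 and 1162.7 ± 179.5 bp (SD, n = 3 each), and the log2 difference of scaled base pairs was 0.60 ± 0.20 (SE, limma adjusted p = 0.377). In this fit 0 genes passed as higher in mesenchyme (0.00%) and 8 as higher in epithelium (0.0454%), while 473 and 996 stood at an unadjusted p under 0.05. Higher covered length in every mesenchyme library was found for Cdh5 among the 8 members fitted, beside 2.99% of the starts fitted. Higher covered length in every epithelium library was found for 0 members, beside 8.85%. Tie1 was also higher in every mesenchyme library, but entered the fit through its mesenchyme libraries alone and is not set beside that share. Pecam1 and Emcn did not enter the fit, having a peak in fewer than 2 libraries.

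Flt1 was the most even of the starts, with 1636, 1669 and 1606 bp in epithelium and 1634, 1526 and 1620 bp in mesenchyme. Kdr, Erg and Sox18 were open over 1006 to 1803 bp in every library, and Sox17 over 398 to 770 bp, each with overlapping tissues. With Cdh5 and Flt1 these make 6 of the 10 members with a start peak in all 6 libraries, beside 68.8% of all genes. Both epithelium and mesenchyme therefore had called peaks at the starts of Kdr, Flt1, Cdh5, Erg, Sox17 and Sox18. Tek had 0, 244 and 80 bp in epithelium and 0, 17 and 0 bp in mesenchyme. Emcn was covered only in mesenchyme library 2, by 232 bp, and the start of the Pecam1 record only in mesenchyme library 3, by 235 bp. Pecam1 has further annotated starts about 35 kb inside the gene, and those of transcripts Pecam1-202, Pecam1-203 and Pecam1-207 had a peak within 1 kb in 3 mesenchyme libraries and 1 epithelium library. Pecam1-205, 35682 bp inside the gene, had one in all 6.

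**Figure D3:**
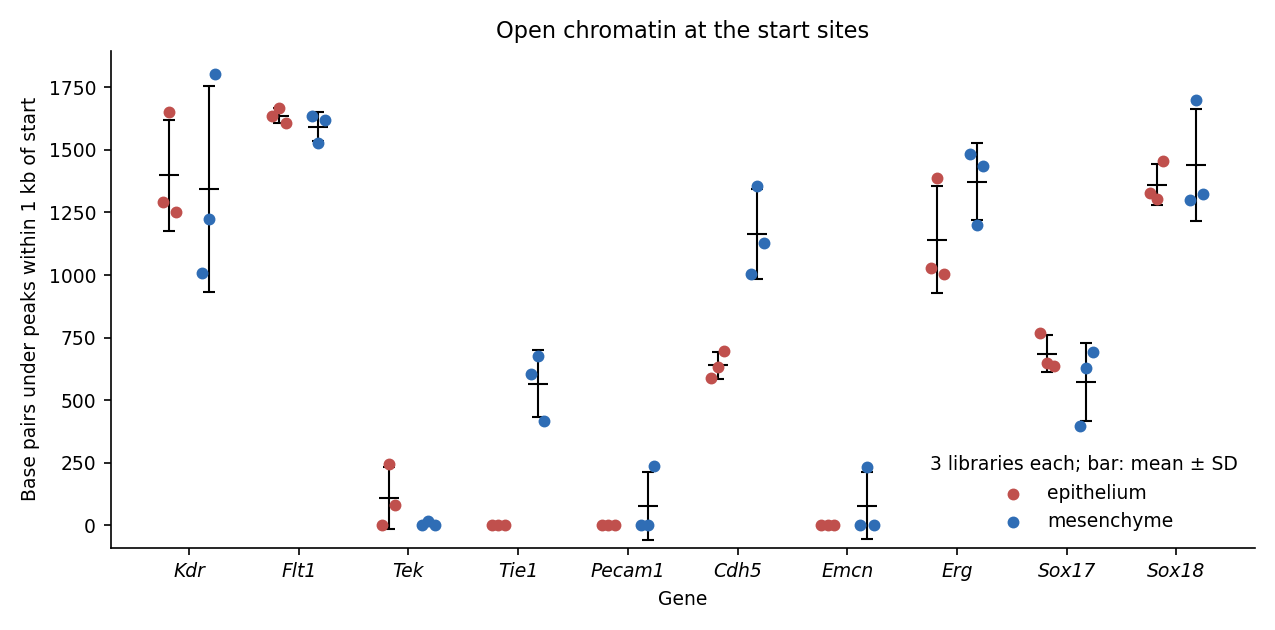
Base pairs under peaks within 1 kb of the start of each endothelial gene, for 3 epithelium (red) and 3 mesenchyme (blue) libraries, with mean and SD. Tie1 is at 0 in epithelium and between 416 and 677 bp in mesenchyme, Cdh5 is wider in every mesenchyme library, and 5 other genes are open in all 6 libraries with overlapping tissues.

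**Figure D4:**
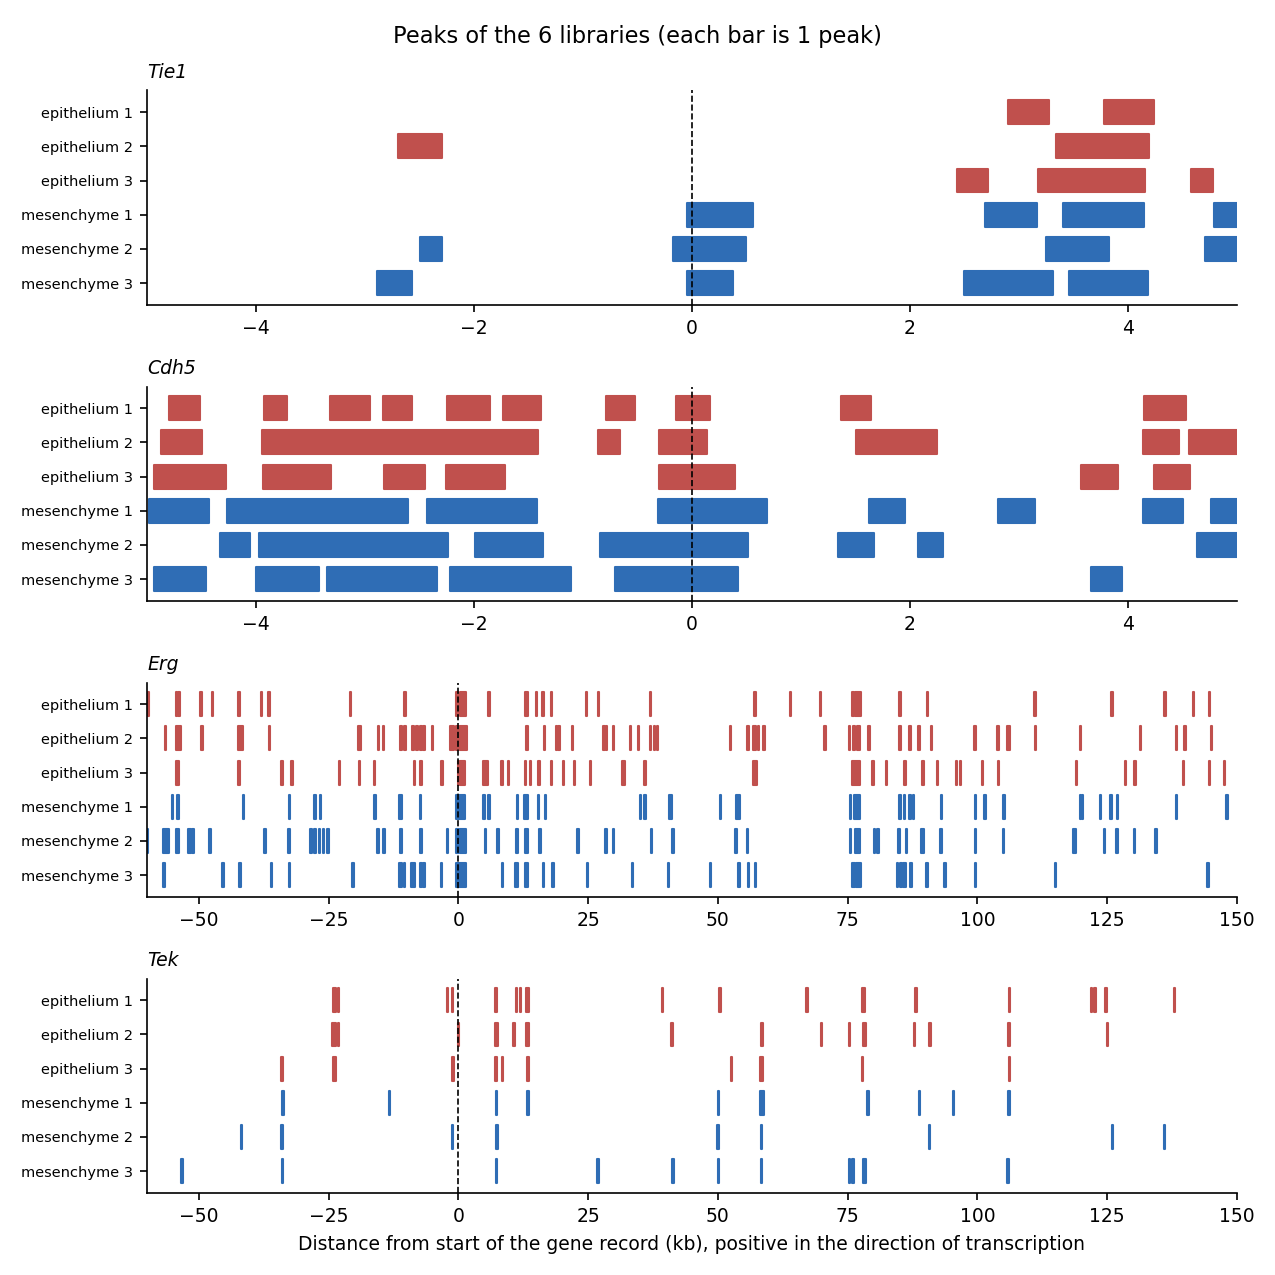
Peaks of the 6 libraries around the starts of Tie1, Cdh5, Erg and Tek, by distance in kb from the start of the gene record, each bar 1 peak. At Tie1 bars cross the start in the 3 mesenchyme rows alone, at Cdh5 they cross it in all 6 rows, and at Tek an epithelium group of bars stands 23.9 kb before the start.

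Single elements were then compared. Peaks of the 6 lists that overlapped were merged, and merged regions seen in 2 or more libraries were kept, 342690 in all, of which 490 lay in the 10 windows. Of these 490, 12 were mesenchyme-only, with a peak in all 3 mesenchyme libraries and no epithelium library (2.45%, beside 2.20% of all kept regions), and 6 were epithelium-only (1.22%, beside 2.98%). A further 91 had a peak in all 6 libraries, 18.6% beside 19.1% of all kept regions. Regions with more mesenchyme than epithelium libraries numbered 158 (32.2%, beside 30.0% overall) and the opposite 108 (22.04%, beside 24.7%). The windows hold 24 starts of other protein-coding genes, so a region in them need not belong to the endothelial gene, and neighbouring regions are not independent. With 1 library left out, 2 libraries stood for a tissue and the counts rose, among all regions too. Without epithelium library 1, 2 or 3 there were 16, 25 and 16 mesenchyme-only regions (3.56%, 5.83% and 3.61%, beside 3.39%, 4.61% and 3.82% of all kept regions). In the same order there were 19, 9 and 20 epithelium-only regions (4.23%, 2.098% and 4.51%, beside 6.54%, 5.39% and 6.75%). Without mesenchyme library 1, 2 or 3 there were 23, 23 and 30 mesenchyme-only regions (5.16%, 5.50% and 6.79%, beside 6.496%, 5.78% and 5.95%) and 9, 11 and 15 epithelium-only regions (2.02%, 2.63% and 3.39%, beside 4.15%, 4.53% and 4.47%). Merged regions can chain peaks that do not all meet. In 3 of the 12 mesenchyme-only regions no base lay under a peak in all 3 libraries, and in the others 138 to 518 bp did, while each of the 6 epithelium-only regions had 87 to 560 such bases.

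Erg had 3 mesenchyme-only regions, 2 in its own introns, 11.2 and 53.8 kb into the gene, and 1 between genes, 32.7 kb before the start. They measured 725, 915 and 400 bp over all libraries, and the intronic region nearer the start was covered by 199, 294 and 725 bp in mesenchyme libraries 1, 2 and 3. The other Erg intronic region was covered by 790, 358 and 393 bp, with 626 bp under peaks of 2 or more libraries and 0 bp under all 3, as the peaks of libraries 2 and 3 met only through that of library 1. The region before the start was covered by 234, 351 and 199 bp, the last at the smallest width of any peak. Erg had 97 kept regions, 10 of them in all 6 libraries, and no epithelium-only region. The intronic region nearer the start had 138 bp under peaks of all 3 mesenchyme libraries, and because it lies in an endothelial gene with no other start in its window, its central 200 bases are printed, on the plus strand and with capitals as above.
Erg region 11.2 kb into the gene, chr16:95575293-95575492: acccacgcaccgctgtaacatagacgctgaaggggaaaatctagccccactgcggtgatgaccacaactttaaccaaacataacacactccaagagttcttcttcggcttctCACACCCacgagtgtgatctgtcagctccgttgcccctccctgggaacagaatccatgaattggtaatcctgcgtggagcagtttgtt

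This Erg sequence held the KLF letters, which lay under peaks of 2 of the 3 mesenchyme libraries. Kdr, with no other start in its window, had 1 mesenchyme-only region of 556 bp in an untranslated part of an exon, 44.7 kb into the gene, covered by 368, 406 and 556 bp. Of the 17 Kdr regions 9 had more mesenchyme libraries, 1 had more epithelium libraries and 7 were even. Flt1 had 1 such region of 381 bp, 79.5 kb into the gene and in an exon, covered by 346, 337 and 199 bp. Tie1 had 2, its start and a region of 301 bp 30.4 kb upstream. The 4 mesenchyme-only regions of the Pecam1 window lay 44.1 to 70.7 kb before its start, 3 in introns of Cep95 and 1 in an untranslated exon of Smurf2, and those 49.0 and 70.7 kb before it had 0 bp under peaks of all 3 libraries, and that of Sox18 lay in an intron of Prpf6. Cdh5, Emcn, Sox17 and Tek had none.

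Epithelium-only regions were found for 5 members. Tek had 1, of 760 bp and 23.9 kb before its start, covered by 714, 650 and 670 bp in epithelium libraries 1, 2 and 3. A second region 23.1 kb before the start had a peak in 2 epithelium libraries and no mesenchyme library. Sox17 had 1 of 444 bp, 21.2 kb before its start, covered by 299, 420 and 342 bp. Of the 20 Sox17 regions 9 had more epithelium libraries, 1 had more mesenchyme libraries and 10 were even. The centres of these epithelium-only regions are shown because Tek and Sox17 were the members higher in every epithelium library in scaled counts.
Tek region 23.9 kb before the start, chr4:94715274-94715473, plus strand: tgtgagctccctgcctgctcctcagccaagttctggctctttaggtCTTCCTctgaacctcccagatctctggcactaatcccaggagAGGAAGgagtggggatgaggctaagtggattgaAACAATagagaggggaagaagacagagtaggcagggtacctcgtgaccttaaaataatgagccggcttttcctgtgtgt
Sox17 region 21.2 kb before the start, chr1:4518496-4518695, plus strand: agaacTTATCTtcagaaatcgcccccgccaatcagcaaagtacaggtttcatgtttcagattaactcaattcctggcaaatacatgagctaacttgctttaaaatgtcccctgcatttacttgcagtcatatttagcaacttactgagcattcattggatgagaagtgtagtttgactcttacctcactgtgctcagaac

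The Tek sequence held AGGAAG on each strand and the SOX letters, and that of Sox17 the GATA letters, all under peaks of all 3 epithelium libraries. Pecam1 had 2 epithelium-only regions within its gene, of 434 and 620 bp, the second over a coding exon. The Cdh5 window had 1 in an intron of Bean1, and the Tie1 window 1 between genes, 19.2 kb upstream. Erg, Emcn, Kdr, Flt1 and Sox18 had none.

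**Figure D5:**
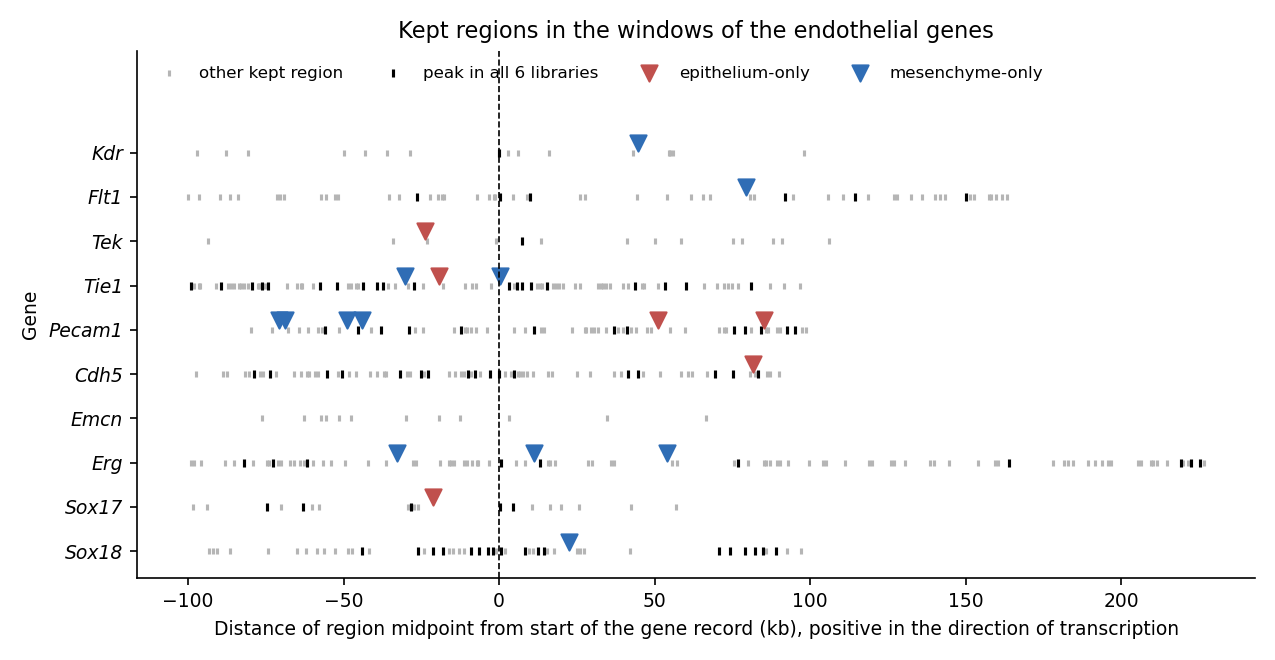
All 490 kept regions of the 10 windows by distance in kb from the start of the gene, with triangles for the 12 mesenchyme-only (blue) and 6 epithelium-only (red) regions and black ticks for the 91 with a peak in all 6 libraries. The only triangle at a start is that of Tie1, and Emcn has neither triangle nor black tick.

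Over the central 200 bases of the 490 regions, the motif letters were about as frequent as in all kept regions. AGGAAG stood in 25.9% of them, beside 25.6% of all kept regions, CGGAAG in 5.31% beside 5.40%, SOX in 7.14% beside 6.33%, GATA in 6.73% beside 6.13% and FOX in 2.24% beside 2.29%. The FOX-ETS letters stood in 11 of 490 (2.24%), beside 1.38% overall. KLF letters stood in 7.35% beside 6.63%, AP-1 letters in 4.69% beside 6.18% and E-box letters in 17.3% beside 20.1%. The mean GC content was 53.3% beside 52.6%.

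Other endothelial genes gave no call either. Of 32 further endothelial genes, 0 passed the limma threshold in either direction, beside 1.64% of all genes tested as higher in mesenchyme and 1.49% in epithelium. At an unadjusted p under 0.05 stood 2 of the 32, beside 17.9% of all genes tested. The median log2 difference of the 32 was -0.02. In 4 of the 32 (12.5%, beside 13.0% of all genes tested), every mesenchyme library was above every epithelium library after scaling. These were Fli1, Ets1, Icam2 and Ramp2. The reverse held for 0 of the 32, beside 9.08% of all genes tested. Before scaling, the counts of Icam2 and Ets1 overlapped. Fli1 and Ets1 start at 32542861 and 32636221 on chromosome 9, so their windows overlap and are not 2 separate readings. Fli1, the nearest relative of Erg, had 36, 47 and 34 peaks in epithelium and 49, 51 and 51 in mesenchyme, a log2 difference of 0.31 ± 0.15 (SE, adjusted p = 0.245). Ramp2, a part of the adrenomedullin receptor, had 66, 67 and 66 against 79, 94 and 83 (0.29 ± 0.12 SE, adjusted p = 0.165, in base pairs covered 0.020), and like Pecam1 and Icam2 it lies on chromosome 11. The differences of Icam2 and Ets1 were 0.21 ± 0.12 and 0.18 ± 0.14 (SE, adjusted p = 0.378 and 0.555). None of the 32 shared the start pattern of Tie1. Lmo2 and Mecom came nearest, with a start peak in 2 mesenchyme libraries and no epithelium library, 2 genes named after their values were seen. Of the 32 starts, 23 (71.9%) were open in all 6 libraries, beside 68.8% of all genes.

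Among 14 genes that set arterial, venous and lymphatic endothelium apart, 1 passed as higher in mesenchyme, beside 1.64% of all genes tested. This was Lyve1, a hyaluronan receptor of lymphatic vessels that some macrophages also carry. It had 33, 51 and 32 peaks in epithelium and 60, 62 and 58 in mesenchyme, with every mesenchyme library higher, and its log2 difference was 0.59 ± 0.15 (SE, limma adjusted p = 0.014). Lyve1 missed the threshold under 9 of 19 other settings, among them without epithelium library 3 (adjusted p = 0.083), without mesenchyme library 1 (0.069) and in the gene body alone (0.964), and a peak at its start was called in 2 mesenchyme libraries and no epithelium library. Efnb2, the arterial ephrin, had 34, 49 and 39 peaks in epithelium and 26, 42 and 26 in mesenchyme (log2 difference -0.45 ± 0.17 SE, adjusted p = 0.133). Pdpn, which lymphatic vessels share with several epithelia, had 48, 51 and 55 against 36, 43 and 38 (-0.45 ± 0.15 SE, adjusted p = 0.078). In both, every epithelium library was higher after scaling, Efnb2 by a narrow margin (39.2 against 38.3) and with counts that overlapped before it. Of the 14 genes, 1 was higher in every mesenchyme library and 2 in every epithelium library. These were 7.14% and 14.3%, beside 13.0% and 9.08% of all genes tested. Pdpn passed in base pairs covered (adjusted p = 0.0077).

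Of 10 Vegf and angiopoietin ligands and their coreceptors, 0 passed, with a median log2 difference of 0.03. At an unadjusted p under 0.05 stood 1 of the 10, beside 17.9% of all genes tested. After scaling, 2 of the 10 were higher in every epithelium library, beside 9.08% of all genes tested. Another 1 of the 10 was higher in every mesenchyme library, beside 13.0%. Vegfc and Angpt1 were higher in every epithelium library (-0.69 ± 0.33 and -0.45 ± 0.28 SE, adjusted p = 0.258 and 0.407), and Vegfd in every mesenchyme library (0.37 ± 0.32 SE, adjusted p = 0.593). All 3 were separate only after scaling, as each had a count that both tissues shared. Angpt1 passed as higher in epithelium in base pairs covered (log2 difference -1.12, adjusted p = 0.0063). Vegfc is the main growth factor of lymphatic vessels and Angpt1 the ligand that activates Tek. Of 12 genes of mural cells, the pericytes and smooth muscle that wrap vessels, 0 passed. Their median was 0.11, and Notch3, a receptor of mural cells, had 61, 78 and 72 peaks in epithelium and 92, 102 and 91 in mesenchyme (0.37 ± 0.11 SE, adjusted p = 0.053). Notch3 passed in base pairs covered (0.032), with a mean of at least 5 peaks (0.048) and with the replicate block (0.029). All 12 mural starts were open in all 6 libraries, beside 68.8% of all genes.

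Blood inside the vessels was read from 12 erythroid genes, of which 0 passed (median 0.09). At an unadjusted p under 0.05 stood 1 of the 12, beside 17.9% of all genes tested. After scaling, 1 of the 12 was higher in every mesenchyme library and 1 in every epithelium library. These were 8.33% each, beside 13.0% and 9.08% of all genes tested. Klf1 was higher in every mesenchyme library (0.19 ± 0.11 SE, adjusted p = 0.360). Alas2, the first enzyme of haem synthesis in red cells, was higher in every epithelium library (-0.39 ± 0.27 SE, adjusted p = 0.477), and lies on the X chromosome, whose tested genes had a median of -0.45. Gata1, Alas2 and Hbb-y had no start peak in any library. Summed over the 12 genes, the scaled peaks ranged from 446 to 557 in epithelium and from 484 to 511 in mesenchyme, which overlap. Neighbouring globin genes share peaks in their windows, so the sum, the median and the 12 genes are not separate readings. Hbb-y and Hbb-bh1 had the same Pearson correlation with the mean of the 10 endothelial genes (-0.438 each). The summed peaks of the 10 endothelial genes ranged from 415 to 451 in epithelium and from 433 to 454 in mesenchyme.

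Over the 6 libraries, the mean log2 level of the 10 endothelial genes was between 4.97 and 5.22, with mesenchyme library 1 lowest and mesenchyme library 3 highest. The genes of the other lists whose profile was most like it were Pdgfrb, Pdgfra and Epcam, with Pearson correlations of 0.83, 0.83 and 0.81 across 6 libraries. These points share list length and scaling, and the 3 genes are markers of mural cells, mesenchyme and epithelium in that order, with log2 differences between tissues of 0.01 ± 0.10, -0.04 ± 0.16 and 0.06 ± 0.16 (SE).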

How the data were processed

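ATAC-seq libraries of mouse palatal epithelium (n = 3) and mesenchyme (n = 3) were used. To make the deposited lists the authors used Trimmomatic 0.38 for trimming and Bowtie2 for alignment to mm10, dropped duplicates by SAMtools, kept fragments shorter than 100 bp and called peaks in each library with MACS2 2.1.1 (study methods and submitters' processing notes). No threshold for peaks is given in the sources used here. The deposited lists hold chromosome, start and end, with no height, p-value or score, and list length stands in for depth. Such calls depend on sequencing depth, and a weak element can fall on either side of the threshold.

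Peaks with a midpoint in the gene body or within 100 kb of the start of the GENCODE M21 gene record (GRCm38.p6) were counted per gene and scaled to the mean list length. The values, as log2(scaled peaks + 1), entered limma 3.58.1 in R 4.3.3 (mean trend, no replicate block), over 21736 of 21911 symbols with a mean of at least 1 peak, with Benjamini-Hochberg adjustment and a threshold of 0.05. Log2 differences on this scale understate changes of genes with few peaks. P-values measure the spread between these libraries, which the sample titles number as replicates and the study calls biological replicates. The study compared reads with DiffBind, and peak counts take its place here. Peaks overlapping by at least 1 bp were merged, and regions seen in 2 or more libraries were kept. The central 200 bases of each region and 280 bases at each start were searched for motif letters on both strands. RefSeq promoter entries matched 6 of the 10 members, and the sequences printed were read from the genome.

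The members, gene lists and motifs were chosen with earlier results of these data known. All members were named. Of other lists, genes past the threshold were named, and at most 4 others with the largest difference among those whose libraries did not overlap, as well as the 3 genes most like the members' mean. Alternatives covered scaling, pseudocount, filter, window, peak assignment, base pairs covered, the mean trend, the replicate block and each library left out. The start-site fit, other reaches around the start and the gene body alone were added after the data were seen.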

Additional observations from a re-analysis of the deposited data

How the results depend on the processing

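Over 19 other fits, none of the 10 endothelial genes passed the threshold except under base pairs covered, where 2 genes, Tek and Sox17, were higher in epithelium. That measure called 1237 of all genes as higher in epithelium, against 324 in the fit reported. Of 190 member values in the 19 other fits, 157 kept their direction and their side of the threshold, 2 came to pass it and 31 changed sign. Of 444 values of 21 other named genes and of the start sites, 390 kept both, 35 no longer passed, 9 came to pass and 10 changed sign. The counts over all genes (356 higher in mesenchyme and 324 in epithelium) moved far more, in that order to 16 and 31 without scaling, 177 and 187 with thinned lists, 1 and 0 without a filter, 155 and 174 with 50 kb, 0 and 19 with 10 kb, 10 and 22 with nearest starts, 1509 and 1237 with base pairs covered, 2 and 7 in gene bodies, and 1 and 4 without the mean trend. Leaving out 1 library gave 143 (without mesenchyme library 2) to 270 and 154 (without epithelium library 1) to 283, and the fits then have fewer samples. The replicate block gave 573 and 427 and no member. Same-numbered libraries correlated at 0.018, 0.049 and -0.009 in their deviations from the tissue mean. Epithelium libraries 1 and 2 correlated best with the mesenchyme library of their own number, and epithelium library 3 with mesenchyme library 1 (0.020). Values this close to 0 cannot decide whether same-numbered libraries share embryos. The cause of these moves was not tested.

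Mesenchyme-only regions of the members (12) numbered 32 and epithelium-only regions (6) 20 when 1 peak in the other tissue was allowed. These were 6.53% and 4.08%, beside 5.98% and 5.67% of all kept regions. With peaks of at least 300 bp, 6 mesenchyme-only and 4 epithelium-only regions stayed (1.98% and 1.32%, beside 2.53% and 3.84%). Leaving out 1 library gave 16 to 30 and 9 to 20, where the rule asks for 2 libraries in place of 3. Members without overlap numbered, for mesenchyme and epithelium, 0 and 1 without scaling or with 50 kb, 0 and 2 under median ratio scaling or base pairs covered, 1 and 0 with 10 kb, and 2 and 0 in gene bodies. They numbered 1 to 2 and 2 to 3 with 1 library left out. Tie1 was the only member with a start peak in every mesenchyme and no epithelium library under all 9 alternatives run. For Tie1 itself only the reach of 2000 bp could have changed the pattern. The other alternatives could only have added further members.

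Log2 differences that changed sign belonged to genes that did not pass in the fit reported. With base pairs covered they were Cdh5 0.098, Tie1 -0.013 and Vegfd -0.107. In gene bodies they were Pecam1 -0.119, Erg -0.043, Sox17 0.436 and Vegfd -0.223. With thinned lists they were Cdh5 0.0040, Flt1 -0.023, Erg -0.0054 and Dcn -0.051, and under median ratio scaling Flt1 -0.0026 and Erg -0.015. With nearest starts they were Pecam1 -0.055, Cdh5 0.072, Erg -0.059, Sox18 0.087, Icam2 -0.0020, Alas2 0.610 and Dcn -0.145, and without scaling Cdh5 0.060. With 10 kb they were Pecam1 -0.054, Erg -0.062, Emcn -0.036, Sox17 0.230 and Dcn -0.275, and with 50 kb Flt1 -0.045 and Erg -0.041. With 1 library left out, Cdh5 ranged from -0.140 to 0.092, Erg from -0.066 to 0.073, Flt1 from -0.154 to 0.150, Emcn from -0.317 to 0.675, Sox18 from -0.124 to 0.043, and the covered length at the Sox18 start from -0.161 to 0.038.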
